A study of Mus musculus with 32 samples.

Results

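Mouse brain tumour cells that carried HRAS together with MYC were compared with tumour cells that carried HRAS together with Bmi1, so that both groups shared HRAS and differed in the second added gene. The members were chosen by the titles of the arrays: 7 arrays of HRAS+MYC cells and 2 arrays of HRAS+Bmi1 cells, 9 of the 32 arrays in the series. Every culture began as spheres grown from the wall of the lateral ventricle of Trp53-deficient mice after birth (strain B6;129-Trp53tm1Brd), so loss of p53 was common to all groups. The cells received their oncogenes in culture and were transplanted into mouse brains. Cells that still expressed the added cassette were sorted from the tumours by flow cytometry and regrown as neurospheres, which are floating clusters of neural stem and progenitor cells, before RNA was taken. The labels call the HRAS+MYC tumours AT/RT-like, after the atypical teratoid/rhabdoid tumour, a malignant embryonal brain tumour of young children. They call the HRAS+Bmi1 tumours gliomas. For side by side values, 5 arrays of HRAS cells (glioma) and 2 arrays of cells from secondary tumours that formed after MYC was added to HRAS glioma sphere cells ("HRAS then MYC") were used, together with 3 arrays of MYC+Bmi1 cells and 6 arrays of MYC cells (both called PNET, primitive neuroectodermal tumour). The labels do not say whether arrays of one group came from separate tumours or animals, so the p-values below measure the spread between arrays, which may be technical.

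HRAS is a small GTPase that passes growth factor signals to the RAF-MEK-ERK (MAPK) cascade. MYC is a transcription factor that pairs with MAX, binds E-box sequences and drives genes of ribosome and nucleotide synthesis, and it represses its own locus in many cell types. Bmi1 is a subunit of Polycomb repressive complex 1 (PRC1), which marks and compacts silent chromatin, and it is known for keeping neural stem cells dividing by silencing Cdkn2a. In people most AT/RTs have lost SMARCB1, a subunit of the SWI/SNF chromatin remodeller, and rhabdoid cells can carry epithelial keratins, vimentin and smooth muscle actin side by side.

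The values were log2 expression levels from a whole-transcript microarray, 1 probe set for each of 19938 genes. Pairs of HRAS+MYC arrays correlated at r between 0.972 and 0.992 over all genes, and 156 to 1214 genes differed by at least 1 log2 unit within a pair. The 2 HRAS+Bmi1 arrays correlated at 0.994, with 105 such genes. An HRAS+MYC array against an HRAS+Bmi1 array gave r between 0.927 and 0.948, with 2098 to 2751 such genes. As a guide to the level of silent genes, 1027 olfactory receptor genes had a median of 3.44 and a 95th percentile of 5.09. Differences are given as HRAS+MYC minus HRAS+Bmi1 on the log2 scale with their standard error, from limma with Benjamini-Hochberg adjustment over all genes, and a gene passed at an adjusted p under 0.05. The standard error draws on the spread within all 8 groups of the series, so it can be wide where the arrays compared agree closely. Because the arrays hold RNA of whole cultures, fewer cells of a type and less RNA per cell cannot be told apart.

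Of 19938 genes, 3424 passed between HRAS+MYC and HRAS+Bmi1 cells (17.2%): 1517 were higher in HRAS+MYC cells (7.61%) and 1907 were lower (9.56%). Counts of list members in this comparison are to be read beside these shares. The falls were the larger class at each size: 416 genes fell and 182 rose by at least 2 log2 units, and 133 fell and 73 rose by at least 3. All 7 HRAS+MYC arrays lay above both HRAS+Bmi1 arrays for 17.7% of genes and below both for 17.4%, so 35.1% of genes did not overlap between the groups. The number of calls rested on both HRAS+Bmi1 arrays. It was 1317 without HRAS+Bmi1 replicate 1 and 1632 without replicate 2, where the lone array was taken to vary like the other groups. The median over all genes was 0.06, and 0.22 when each array was centred on its own median. With centred arrays 4638 genes passed and 68.7% of them were higher in HRAS+MYC cells, compared with 44.3% as deposited, so the balance of rises and falls depends on the scaling.

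The added genes were looked at first. Mouse Bmi1 measured 8.94 to 9.78 (median 9.33) in HRAS+MYC arrays, against 10.70 and 10.06 in HRAS+Bmi1 arrays. The difference was -1.02 ± 0.216 (SE; adjusted p = 0.00118). Every HRAS+MYC array was below both HRAS+Bmi1 arrays, as the labels would have it, although the call was lost without HRAS+Bmi1 replicate 1 (adjusted p = 0.149). Between MYC+Bmi1 and MYC cells, where Bmi1 was also added, mouse Bmi1 did not pass. Ezh2, added to neither HRAS pair, was also lower in HRAS+MYC than in HRAS+Bmi1 cells (below). The mouse Myc probe set went the other way from the labels. It measured 7.24 to 7.96 (median 7.78) in HRAS+MYC arrays, against 10.38 and 10.87 in HRAS+Bmi1 arrays (-2.96 ± 0.448, adjusted p = 2.83e-05), and HRAS arrays held 10.44 to 12.85. The groups were far apart, with HRAS+Bmi1 cells at the level of HRAS cells and HRAS+MYC cells near the 2 HRAS then MYC arrays (8.25 and 7.49). The species and the part of MYC that was added are not given, so this probe set reads the mouse gene and does not check the MYC label. Its neighbour Pvt1 gave 7.15 to 7.71 in HRAS+MYC arrays, against 8.19 and 8.99 in HRAS+Bmi1 arrays (-1.19 ± 0.586, adjusted p = 0.178). Hras has no probe set of its own in the annotation and was not analysed here.

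The largest rises in HRAS+MYC cells were those of Krt19, Il5ra, Dynap and Plet1. The 15 largest ranged over 4.54 to 6.86 log2 units with adjusted p-values up to 0.000796. Krt19, a keratin of simple epithelia, measured 10.27 to 12.93 (median 11.87) in HRAS+MYC arrays, against 4.98 and 5.12 in HRAS+Bmi1 arrays. The rise was 6.86 ± 0.376, or 116-fold (adjusted p = 4.97e-13), and HRAS+Bmi1 cells sat at the upper end of the silent range. Il5ra, the specific chain of the interleukin-5 receptor, stood at 10.00 to 10.82 (median 10.41) in HRAS+MYC arrays, against 3.69 and 3.59 in HRAS+Bmi1 arrays (6.84 ± 0.162, adjusted p = 6.96e-22). Its 7 HRAS+MYC arrays lay within 1 log2 unit of each other, and both HRAS+Bmi1 arrays were in the silent range. Dynap, a dynactin-associated protein, measured 9.65 to 11.08 (median 10.65) in HRAS+MYC arrays, against 4.60 and 3.79 in HRAS+Bmi1 arrays (6.31 ± 0.425, adjusted p = 3.19e-11). Plet1, a surface protein of trophoblast and of epithelial progenitors, gave 10.29 to 11.72 (median 11.62) in HRAS+MYC arrays, against 5.57 and 5.08 in HRAS+Bmi1 arrays (6.08 ± 0.687, adjusted p = 4.12e-07). The choice of the 15 genes required that the groups do not overlap.

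Keratins 8 and 18, which pair with each other in the filaments of simple epithelia, rose together. Krt18 measured 11.04 to 12.00 (median 11.47) in HRAS+MYC arrays, against 6.22 and 6.08 in HRAS+Bmi1 arrays (5.38 ± 0.816, adjusted p = 2.92e-05). Krt8 measured 10.66 to 12.41 (median 11.47) in HRAS+MYC arrays, against 6.46 and 6.38 in HRAS+Bmi1 arrays (5.05 ± 0.338, adjusted p = 3.19e-11). In every HRAS+MYC array both genes were more than 4 log2 units above both HRAS+Bmi1 arrays. AP-1, the FOS and JUN factor at the end of the MAPK cascade, usually binds TGANTCA with C or G at the centre. The search allowed any base there. The match in Il5ra has C at the centre, and that in Plet1 has T, so it is not the usual AP-1 site. The promoters of these keratins and of Il5ra and Plet1 are shown, and the first 2 below hold TGANTCA. Each is the 250 bases before the gene's start, 5′ to 3′ on the gene's strand, from RefSeq on GRCm38.p6: Il5ra at chr6:106749038-106749287 (minus strand), Plet1 at chr9:50494275-50494524 (plus), Krt8 at chr15:102004343-102004592 (minus) and Krt18 at chr15:102027966-102028215 (plus). Capitals mark TGANTCA, which reads the same on both strands.
Il5ra: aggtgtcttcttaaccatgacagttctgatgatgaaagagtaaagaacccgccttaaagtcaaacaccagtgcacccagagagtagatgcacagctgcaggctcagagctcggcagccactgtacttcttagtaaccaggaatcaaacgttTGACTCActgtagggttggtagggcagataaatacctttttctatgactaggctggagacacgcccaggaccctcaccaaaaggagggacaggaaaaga
Plet1: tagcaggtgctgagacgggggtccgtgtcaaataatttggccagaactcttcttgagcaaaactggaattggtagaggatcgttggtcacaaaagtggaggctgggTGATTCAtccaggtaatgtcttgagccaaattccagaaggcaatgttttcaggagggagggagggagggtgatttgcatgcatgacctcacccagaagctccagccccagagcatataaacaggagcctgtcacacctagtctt
Krt8: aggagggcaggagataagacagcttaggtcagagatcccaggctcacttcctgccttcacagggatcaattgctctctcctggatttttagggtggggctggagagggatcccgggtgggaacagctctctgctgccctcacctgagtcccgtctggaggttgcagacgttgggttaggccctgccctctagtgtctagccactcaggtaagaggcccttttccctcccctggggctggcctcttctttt
Krt18: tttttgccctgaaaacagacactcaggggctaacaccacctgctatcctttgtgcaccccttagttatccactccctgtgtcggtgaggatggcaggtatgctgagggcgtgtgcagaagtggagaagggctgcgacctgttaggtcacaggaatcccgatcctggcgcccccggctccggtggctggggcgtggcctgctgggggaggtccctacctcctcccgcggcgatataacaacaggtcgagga

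The match began 99 bases before the start of Il5ra and 144 bases before that of Plet1, and the keratin promoters held no such letters in this window. RefSeq gave promoters for 15614 of the measured genes and for 11 of the 15 largest rises, of which these 2 had the motif. It stood in 7.12% of all measured promoters, in 7.35% of those of genes higher in HRAS+MYC cells and in 6.11% of those of lower genes. The E-box CACGTG, the preferred site of MYC with MAX and also its own reverse complement, stood in 8.11% of all measured promoters. It was in 10.6% of those of genes higher in HRAS+MYC cells and in 8.9% of those of lower genes. A match is a run of letters and was not tested as a binding site.

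The other large rises included an enzyme, a hormone and adhesion proteins. Ptgs2, the inducible cyclooxygenase that starts prostaglandin synthesis, measured 11.93 to 13.19 (median 12.83) in HRAS+MYC arrays, against 7.47 and 7.12 in HRAS+Bmi1 arrays (5.41 ± 0.479, adjusted p = 6.25e-09). It was the only one of 15 prostaglandin genes to pass (6.67%, near the 7.61% of all genes that rose). HRAS arrays held 7.98 to 11.44, between the other groups. Grb10, an imprinted adaptor that restrains insulin and IGF receptors, gave 6.07 to 11.07 (median 10.50) in HRAS+MYC arrays, against 4.76 and 4.60 in HRAS+Bmi1 arrays (5.33 ± 1.09, adjusted p = 0.000796). HRAS+MYC replicate 2 was the array at 6.07, and the other 6 lay at 10.35 or above. Anxa8, a membrane-binding annexin, measured 8.10 to 11.32 in HRAS+MYC arrays, against 4.63 and 4.52 in HRAS+Bmi1 arrays (5.22 ± 0.481, adjusted p = 1.21e-08). Cdh17, the cadherin of liver and intestine, spread more widely, at 6.56 to 11.69 in HRAS+MYC arrays, against 4.32 and 4.30 in HRAS+Bmi1 arrays (4.72 ± 0.75, adjusted p = 5.18e-05). Nppb (B-type natriuretic peptide), the water channel Aqp8, Cd34 (a sialomucin of blood and vessel progenitors), Phlda2 (an imprinted brake on placental growth) and the orphan receptor Gpr149 completed the 15, with differences of 4.92, 4.91, 4.68, 4.65 and 4.54. Their adjusted p-values were 7.59e-06, 3.19e-11, 2.71e-08, 0.000104 and 0.000222.

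**Figure D1:**
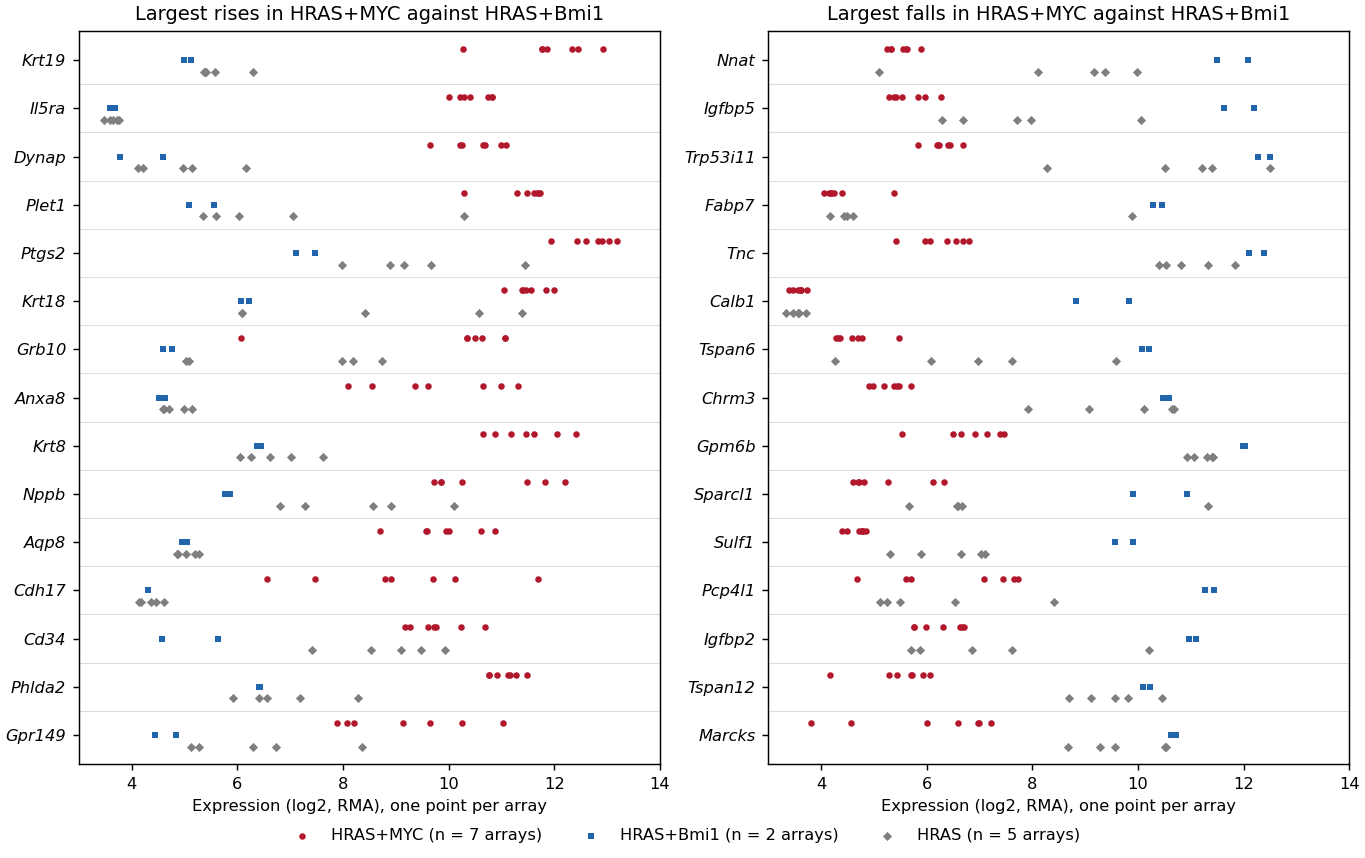
Log2 expression of 30 genes, the 15 leading rises and the 15 leading falls in HRAS+MYC relative to HRAS+Bmi1 cells, 1 point per array for HRAS+MYC (7), HRAS+Bmi1 (2) and HRAS (5) arrays. The genes were picked for groups that do not overlap; Grb10 has 1 HRAS+MYC array at 6.07 apart from the other 6, and HRAS arrays lie near HRAS+Bmi1 for Krt19 and Il5ra but near HRAS+MYC for Calb1.

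The largest falls in HRAS+MYC cells were those of Nnat, Igfbp5, Trp53i11 and Fabp7. The 15 largest ranged over 4.65 to 6.29 log2 units, with adjusted p-values up to 0.0196. Nnat, an imprinted membrane proteolipid of developing brain, measured 5.25 to 5.89 (median 5.56) in HRAS+MYC arrays, against 12.09 and 11.50 in HRAS+Bmi1 arrays (-6.29 ± 0.987, adjusted p = 4.5e-05). Igfbp5, a secreted binder of insulin-like growth factors, measured 5.29 to 6.27 (median 5.53) in HRAS+MYC arrays, against 12.20 and 11.63 in HRAS+Bmi1 arrays (-6.24 ± 0.881, adjusted p = 1.12e-05). Its relative Igfbp2 stood at 5.75 to 6.71 in HRAS+MYC arrays, against 11.10 and 10.96 in HRAS+Bmi1 arrays (-4.77 ± 0.689, adjusted p = 1.54e-05). All 3 genes were low in every HRAS+MYC array and strongly expressed in both HRAS+Bmi1 arrays. Trp53i11, a gene first found as induced by p53, measured 5.85 to 6.68 in HRAS+MYC arrays, against 12.51 and 12.28 in HRAS+Bmi1 arrays (-6.11 ± 0.797, adjusted p = 3.5e-06). Tnc, the matrix protein tenascin C of the ventricular zone and of gliomas, measured 5.43 to 6.81 (median 6.39) in HRAS+MYC arrays, against 12.39 and 12.10 in HRAS+Bmi1 arrays (-5.98 ± 0.734, adjusted p = 1.33e-06).

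Calb1, the calcium buffer calbindin, gave 3.39 to 3.74 in HRAS+MYC arrays, against 9.84 and 8.82 in HRAS+Bmi1 arrays (-5.75 ± 0.289, adjusted p = 7.71e-14). HRAS arrays held 3.34 to 3.71, so this gene was high in HRAS+Bmi1 cells alone of these 3 groups. Chrm3, a muscarinic acetylcholine receptor, measured 4.91 to 5.71 in HRAS+MYC arrays, against 10.59 and 10.47 in HRAS+Bmi1 arrays (-5.23 ± 0.475, adjusted p = 9.23e-09). Gpm6b, a proteolipid of neural membranes, gave 5.54 to 7.46 in HRAS+MYC arrays, against 12.00 and 12.02 in HRAS+Bmi1 arrays (-5.21 ± 0.356, adjusted p = 3.79e-11), and here HRAS arrays were also high at 10.93 to 11.41. Sulf1, which trims sulphate from heparan chains, measured 4.40 to 4.85 in HRAS+MYC arrays, against 9.90 and 9.56 in HRAS+Bmi1 arrays (-5.04 ± 0.427, adjusted p = 2.66e-09). The tetraspanins Tspan6 and Tspan12 fell by 5.51 and 4.69, Pcp4l1 by 4.80 and the kinase C substrate Marcks by 4.65. Fabp7, the lipid binder of radial glia, and Sparcl1, a matrix protein of astrocytes, had wide standard errors. These draw on the spread within all 8 groups, and both calls were kept with the compared groups alone. Fabp7 measured 4.05 to 5.38 in HRAS+MYC arrays, against 10.28 and 10.45 in HRAS+Bmi1 arrays (-5.99 ± 1.8, adjusted p = 0.0196), and Sparcl1 differed by -5.19 ± 1.45 (adjusted p = 0.012). Both calls were lost when either HRAS+Bmi1 array was left out, with adjusted p-values of 0.153 to 0.156 for Fabp7 and 0.0838 to 0.161 for Sparcl1.

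The HRAS arrays show on which side of the comparison a gene moved. These comparisons share arrays with the one above, so their values are given side by side and not as separate evidence. Between HRAS+MYC and HRAS cells 24.7% of genes passed, and 5.91% (1178 genes) between HRAS+Bmi1 and HRAS cells. The count of 1178 became 199 or 324 without HRAS+Bmi1 replicate 1 or 2 and 1801 without HRAS replicate 3. All 15 of the largest rises were also higher in HRAS+MYC than in HRAS cells, a direction that 11.7% of genes took, with a median of 4.53. Against HRAS cells, HRAS+Bmi1 cells had a median of -0.73 for the same 15 genes: 12 did not pass, and Cd34 (-3.79 ± 0.47, adjusted p = 6.75e-06), Ptgs2 (-2.13 ± 0.5, adjusted p = 0.00923) and Nppb (-2.52, adjusted p = 0.0308) fell. The 15 largest falls were divided. In HRAS+MYC cells relative to HRAS cells 10 of them fell and 5 did not pass (median -2.26, where 13% of all genes fell), and in HRAS+Bmi1 cells relative to HRAS cells 7 rose and 8 did not pass (median 3.25, where 2.87% of all genes rose). Calb1 (5.79 ± 0.302), Igfbp5 (4.17 ± 0.919) and Nnat (3.45 ± 1.03) were among those that rose in HRAS+Bmi1 cells. Tnc (-4.71 ± 0.536) and Gpm6b (-4.42 ± 0.26) were among those that fell in HRAS+MYC cells.

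**Figure D2:**
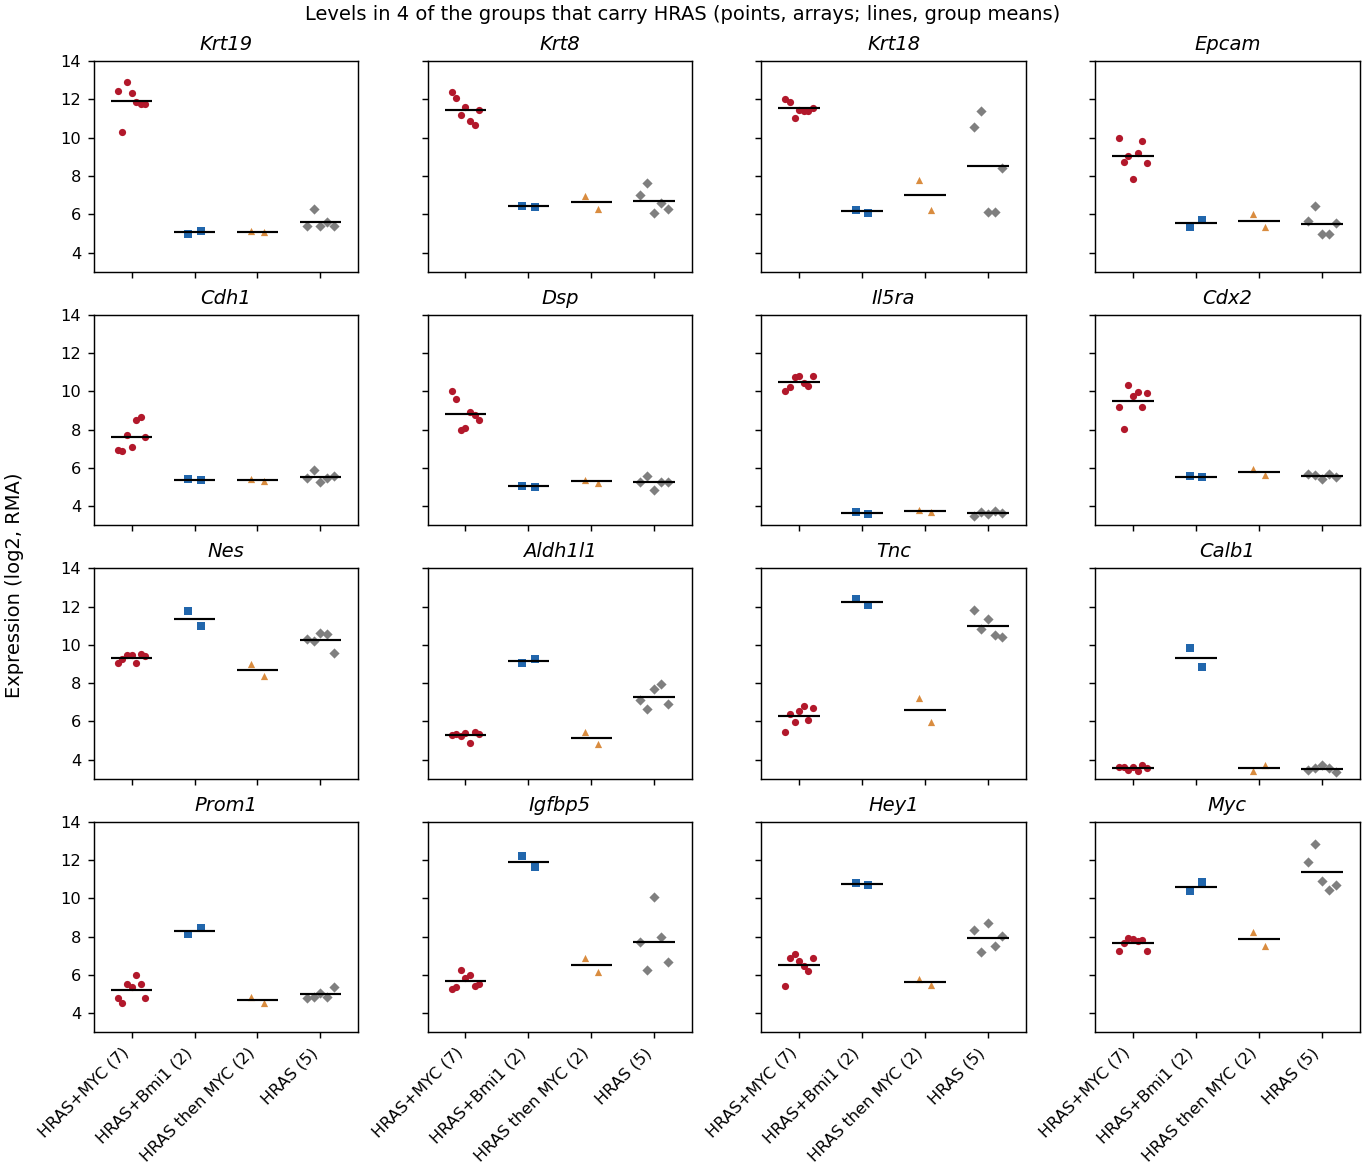
Log2 expression of 16 genes in each HRAS+MYC (7), HRAS+Bmi1 (2), HRAS then MYC (2) and HRAS (5) array, 1 point per array with a line at each group's mean. Krt19, Il5ra and Cdx2 are high in the HRAS+MYC arrays only among these groups, Calb1 and Prom1 in the HRAS+Bmi1 arrays only, and Tnc and Myc are low in both groups that received MYC.

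Adding MYC to established HRAS glioma cells used arrays outside the main comparison. Of all genes, 2495 (12.5%) passed between HRAS then MYC and HRAS cells, and 1110 or 544 passed without HRAS then MYC replicate 1 or 2. None of the 15 largest rises rose there: 14 did not pass and Nppb fell (-2.89, adjusted p = 0.00673). Krt19 measured 5.10 and 5.09 in HRAS then MYC arrays, against 5.36 to 6.30 in HRAS arrays, and Il5ra 3.80 and 3.70, against 3.48 to 3.75. The median difference of the 15 genes was -0.09. Of the 15 largest falls, 3 fell after the addition of MYC and 12 did not pass (median -1.19). Tnc was one of them, at 7.23 and 5.99 in HRAS then MYC arrays, against 10.40 to 11.84 in HRAS arrays (-4.37 ± 0.766, adjusted p = 0.000343). Trp53i11 stayed high at 11.99 and 12.50 in HRAS then MYC arrays, against 8.27 to 12.50 in HRAS arrays. Bmi1 was also added to MYC cells, again in other arrays. There 30 genes passed between MYC+Bmi1 and MYC cells (0.15%; 0.1% higher and 0.0502% lower), and none of the 30 leading genes of the main comparison was among them, with medians of 0.10 for the largest rises and -0.42 for the largest falls. The count of 30 was 1 when only those 2 groups were fitted and between 9 (without MYC+Bmi1 replicate 3) and 234 (without MYC+Bmi1 replicate 1) when single arrays were left out.

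Genes of epithelial keratins, cell junctions and epithelial splicing had the highest share of rises among the 33 lists examined. Of 21 measured, 14 rose, 1 fell and 6 did not pass, with a median of 1.45 against 0.06 over all genes. Beyond the keratins, Cldn6, a tight junction claudin of embryonic epithelium, measured 8.11 to 11.30 in HRAS+MYC arrays, against 5.35 and 5.36 in HRAS+Bmi1 arrays (4.47 ± 0.921, adjusted p = 0.000887). The desmosome genes Dsc2 and Dsp rose by 4.08 ± 0.416 (adjusted p = 6.95e-08) and 3.81 ± 0.428 (adjusted p = 3.82e-07). Dsp, which ties keratin filaments to the junction, stood at 7.99 to 10.01 in HRAS+MYC arrays, against 5.07 and 4.98 in HRAS+Bmi1 arrays. Epcam, the epithelial cell adhesion molecule, measured 7.83 to 9.98 (median 9.05) in HRAS+MYC arrays, against 5.35 and 5.68 in HRAS+Bmi1 arrays (3.52 ± 0.474, adjusted p = 5.5e-06). Cdh1 (E-cadherin) measured 6.86 to 8.66 (median 7.62) in HRAS+MYC arrays, against 5.43 and 5.34 in HRAS+Bmi1 arrays (2.23 ± 0.326, adjusted p = 1.71e-05). In all of these the HRAS+Bmi1 arrays were close to the silent level and the HRAS+MYC arrays were clear of it.

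Smaller rises came from Ocln (2.82), the splicing regulator Esrp1 (2.04), Cldn7 (1.45), Pkp3 (1.15), Dsg2 (1.12) and Cldn3 (0.60). Pkp1, a plakophilin of desmosomes, was the exception at 6.19 to 8.08 in HRAS+MYC arrays, against 8.90 and 9.02 in HRAS+Bmi1 arrays (-1.68 ± 0.428, adjusted p = 0.00625). Jup (1.23 ± 0.448, adjusted p = 0.0586), Krt7 (0.44 ± 0.186, adjusted p = 0.112), Grhl2, Pkp2, Tjp3 and Cldn4 did not pass. In other groups, 17 of the 21 rose in HRAS+MYC relative to HRAS cells and none passed between HRAS+Bmi1 and HRAS cells. In HRAS then MYC relative to HRAS cells none rose and Pkp1 fell (-1.64 ± 0.447, adjusted p = 0.0145). Leaving out either HRAS+Bmi1 array left 12 rises and ended the call of Pkp1 (adjusted p = 0.0743 to 0.0916).

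**Figure D3:**
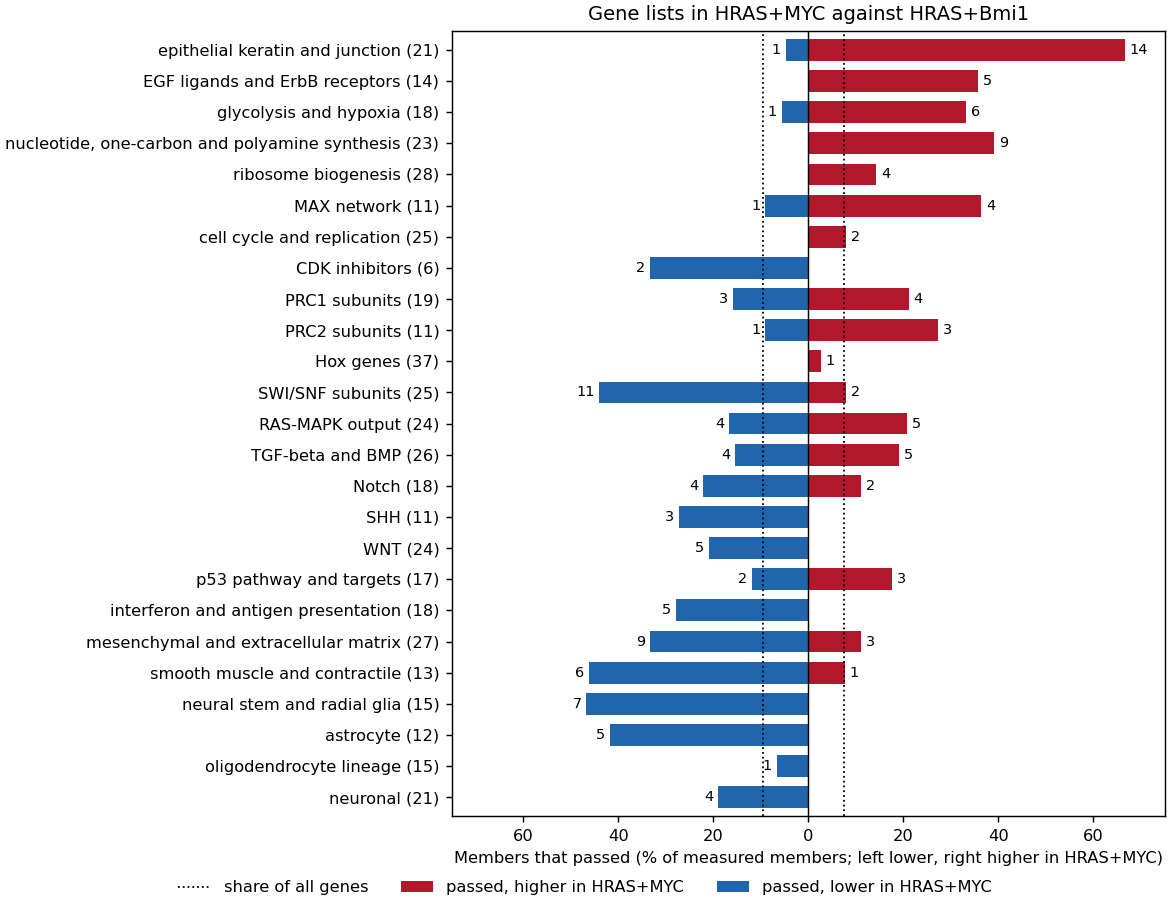
Share of the measured members of each of 25 gene lists that passed between HRAS+MYC and HRAS+Bmi1 cells, in percent, with genes higher in HRAS+MYC to the right and lower to the left of 0 and the counts printed beside the bars. Dotted lines mark the share of all genes (7.61% higher, 9.56% lower); the epithelial list reaches farthest to the right with 14 of 21.

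Growth genes linked to MYC were compared next. Of 23 genes of nucleotide, one-carbon and polyamine synthesis, 9 rose and none fell (median 0.70), and of 28 ribosome biogenesis genes, 4 rose and none fell (median 0.33). Srm, spermidine synthase, measured 11.12 to 11.88 in HRAS+MYC arrays, against 10.34 and 10.12 in HRAS+Bmi1 arrays (1.27 ± 0.287, adjusted p = 0.00211). Gart (purine synthesis) and Ctps (cytidine nucleotide synthesis) rose by 1.21 each (adjusted p = 0.000579 and 0.000388). The serine pathway enzymes Phgdh and Psat1 rose by 0.85 ± 0.166 and 0.76 ± 0.183, and Odc1, the first enzyme of polyamine synthesis, by 0.89 ± 0.24 (adjusted p = 0.00939). Npm1, the nucleolar protein nucleophosmin, measured 11.88 to 12.17 in HRAS+MYC arrays, against 11.33 and 11.47 in HRAS+Bmi1 arrays (0.64 ± 0.122, adjusted p = 0.000414). Mrto4 (0.82), Ebna1bp2 (0.81) and Nop16 (0.75) were the other ribosome biogenesis genes that rose. These were small shifts. All HRAS+MYC arrays lay above both HRAS+Bmi1 arrays for 18 of 23 nucleotide genes and 21 of 28 ribosome biogenesis genes, Srm and Npm1 among them. They lay below both for 1 and 0. Over all genes the shares were 17.7% above and 17.4% below.

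The same lists against HRAS cells gave larger counts. All 28 ribosome biogenesis genes and 18 of 23 nucleotide genes rose in HRAS+MYC relative to HRAS cells, with medians of 0.89 and 0.82. In HRAS+Bmi1 relative to HRAS cells 1 gene of each list rose, and the medians were 0.56 and 0.24. In HRAS then MYC relative to HRAS cells, where 6.3% of all genes rose, 15 and 14 rose, with medians of 0.66 and 0.83. The counts between the HRAS pairs were sensitive to single arrays: 4 or 3 nucleotide genes and 2 or 1 ribosome biogenesis genes rose without HRAS+Bmi1 replicate 1 or 2. They were higher with centred arrays, with the compared groups alone and with array weights. There 15, 17 and 17 nucleotide genes and 9, 11 and 13 ribosome biogenesis genes rose. Of all 19938 genes, 3184, 1922 and 3635 rose in those settings. Srm, Ctps, Mrto4 and Ebna1bp2 lie on the part of chromosome 4 that is shifted in these arrays (below). Gart and Umps lie on chromosome 16, which is shifted over most of its gene order. Without those chromosomes 5 of 19 nucleotide genes (median 0.57) and 2 of 26 ribosome biogenesis genes (median 0.31) rose.

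Partners of MYC in the MAX network moved too, with 4 of 11 higher and 1 lower. Mxi1, which competes with MYC for MAX, measured 8.97 to 9.83 in HRAS+MYC arrays, against 7.33 and 8.06 in HRAS+Bmi1 arrays (1.77 ± 0.221, adjusted p = 1.78e-06). HRAS arrays held 8.98 to 9.86, so HRAS+Bmi1 cells were the low group. The network members Mxd1 (1.29), Mlxip (0.71) and Mnt (0.55) rose as well, while Max gave -0.06 ± 0.214 (adjusted p = 0.891), with a 95% interval of -0.50 to 0.38. Mycn, the neural MYC relative, measured 5.70 to 6.04 in HRAS+MYC arrays, against 7.29 and 7.62 in HRAS+Bmi1 arrays (-1.57 ± 0.414, adjusted p = 0.00795). The calls of Mycn and Mxd1 were lost without either HRAS+Bmi1 array (adjusted p = 0.0576 to 0.234 over the settings that lost them).

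With centred arrays, with the compared groups alone and with array weights 4, 7 and 8 of 25 cell cycle and replication genes rose. Of all 19938 genes, 3184, 1922 and 3635 rose in those settings. In the main fit 2 of the 25 rose, a share near the 7.61% of all genes. The 2 were Cdc20, an activator of the anaphase-promoting complex, at 9.48 to 9.86 in HRAS+MYC arrays, against 8.30 and 8.38 in HRAS+Bmi1 arrays (1.39 ± 0.264, adjusted p = 0.000367), and the mitotic kinase Aurkb (0.82 ± 0.179, adjusted p = 0.00157). Mki67, the proliferation antigen, gave 8.85 to 10.12 in HRAS+MYC arrays, against 9.70 and 9.45 in HRAS+Bmi1 arrays (-0.16 ± 0.339, adjusted p = 0.811), and these overlapped. Among 6 CDK inhibitors, Cdkn2c (p18) measured 5.53 to 6.68 in HRAS+MYC arrays, against 8.69 and 8.79 in HRAS+Bmi1 arrays (-2.61 ± 0.475, adjusted p = 0.000239). Cdkn1b (p27) measured 7.56 to 8.67 in HRAS+MYC arrays, against 9.52 and 9.63 in HRAS+Bmi1 arrays (-1.44 ± 0.252, adjusted p = 0.000153). Both fell with no overlap. Cdkn2a, the textbook target of Bmi1, measured 9.95 to 10.80 in HRAS+MYC arrays, against 9.70 and 10.01 in HRAS+Bmi1 arrays (0.49 ± 0.203, adjusted p = 0.104, 95% interval 0.07 to 0.90). Set against HRAS cells it was lower in HRAS+Bmi1 cells (-0.95, adjusted p = 0.0063) and in HRAS+MYC cells (-0.47, adjusted p = 0.0211). Cdkn2a lies on chromosome 4, in a run of 50 genes (Nfib to Tmem59) whose median difference was 0.49 between the HRAS pairs, -0.85 in HRAS+Bmi1 relative to HRAS cells and -0.23 in HRAS+MYC relative to HRAS cells, so its differences from HRAS+Bmi1 cells were close to those of its neighbours.

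Polycomb subunits split in both directions. Of 19 PRC1 genes, 4 rose and 3 fell. Pcgf6 (1.03 ± 0.219, adjusted p = 0.00115) and Pcgf1 (1.02 ± 0.258, adjusted p = 0.00575), which take the place of Bmi1 in variant complexes, rose, as did Cbx7 (0.61) and Phc2 (0.51). Phc1, a polyhomeotic subunit, measured 6.49 to 7.35 in HRAS+MYC arrays, against 8.21 and 8.11 in HRAS+Bmi1 arrays (-1.24 ± 0.228, adjusted p = 0.00026). Kdm2b, which brings variant PRC1 to CpG islands, fell by 0.77 and Bmi1 itself by 1.02. Of 11 PRC2 genes, Ezh1 (0.90), Rbbp4 (0.53) and Aebp2 (0.37) rose. Phc2 and Rbbp4 lie on the shifted part of chromosome 4 (below), and without chromosomes 4 and 16 there were 3 PRC1 and 2 PRC2 rises. Ezh2, the main methyltransferase of that complex, measured 9.81 to 10.20 in HRAS+MYC arrays, against 10.90 and 10.67 in HRAS+Bmi1 arrays (-0.78 ± 0.205, adjusted p = 0.00811). The Ezh2 and Pcgf1 calls were lost without HRAS+Bmi1 replicate 1 (adjusted p = 0.176 and 0.19), and those of Kdm2b and Ezh1 without either HRAS+Bmi1 array. Of 37 Hox genes, classical Polycomb targets, Hoxc6 alone passed, at 4.37 to 5.00 in HRAS+MYC arrays, against 4.01 and 4.25 in HRAS+Bmi1 arrays (0.53 ± 0.152, adjusted p = 0.0141), all within the silent range. That is a smaller share than the 7.61% of all genes, and the call was lost with the compared groups alone, with a replicate block and without HRAS+Bmi1 replicate 1 (adjusted p = 0.0689 to 0.278). With centred arrays 10 Hox genes rose, where 3184 of all 19938 genes rose.

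Of 15 neural stem and radial glia genes, 7 fell in HRAS+MYC cells, none rose and 8 did not pass (median -0.94). Prom1 (CD133) measured 4.52 to 5.99 in HRAS+MYC arrays, against 8.16 and 8.44 in HRAS+Bmi1 arrays (-3.08 ± 0.55, adjusted p = 0.000201). Slc1a3, the glutamate transporter GLAST of radial glia, gave 4.99 to 5.84 in HRAS+MYC arrays, against 8.03 and 8.79 in HRAS+Bmi1 arrays (-2.81 ± 0.751, adjusted p = 0.00902). Nes, the intermediate filament nestin, measured 9.04 to 9.53 (median 9.42) in HRAS+MYC arrays, against 11.75 and 11.00 in HRAS+Bmi1 arrays (-2.05 ± 0.331, adjusted p = 6.39e-05). The first pair was near the silent level in HRAS+MYC cells, while Nes remained well expressed. Msi1 (-1.45), the Notch target Hes1 (-0.93) and Sox1 (-0.76) fell with Fabp7. Sox2, the neural stem cell factor, measured 9.69 to 10.71 in HRAS+MYC arrays, against 10.52 and 10.84 in HRAS+Bmi1 arrays (-0.28 ± 1.04, adjusted p = 0.897, 95% interval -2.41 to 1.84). Notch1 (-1.68 ± 0.629, adjusted p = 0.0658) and Sox9 (-1.60 ± 0.584, adjusted p = 0.06) just missed the threshold. In HRAS+Bmi1 relative to HRAS cells 4 of the 15 rose, among them Prom1 (3.30 ± 0.574, adjusted p = 0.000582). Without HRAS+Bmi1 replicate 1 or 2 the falls numbered 2 or 3, and Slc1a3 was among those lost (adjusted p = 0.0586 to 0.159).

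Astrocyte genes fell in 5 of 12 cases and rose in none (median -0.54). Aldh1l1, the folate enzyme used as a pan-astrocyte marker, measured 4.88 to 5.44 in HRAS+MYC arrays, against 9.05 and 9.27 in HRAS+Bmi1 arrays (-3.89 ± 0.307, adjusted p = 7.26e-10). HRAS arrays lay between, at 6.64 to 7.97. Apoe, the lipid carrier, measured 7.24 to 7.70 in HRAS+MYC arrays, against 10.31 and 10.32 in HRAS+Bmi1 arrays (-2.86 ± 0.712, adjusted p = 0.00519), and Clu (-1.77), Glul (-0.96) and Sparcl1 fell too. The defining astrocyte markers were low in both groups. Gfap gave 5.03 to 6.71 in HRAS+MYC arrays, against 5.88 and 6.34 in HRAS+Bmi1 arrays (-0.67 ± 0.639, adjusted p = 0.542), and S100b gave 4.72 to 5.56, against 5.05 and 5.21 (0.01 ± 0.416, adjusted p = 0.992, 95% interval -0.85 to 0.86). Of 15 oligodendrocyte lineage genes, Bcan passed, a proteoglycan of glial precursors, at 5.20 to 5.93 in HRAS+MYC arrays, against 9.19 and 8.77 in HRAS+Bmi1 arrays (-3.47 ± 0.963, adjusted p = 0.0118). Olig2, a usual marker of glioma, measured 4.63 to 5.32 in HRAS+MYC arrays, against 6.96 and 7.09 in HRAS+Bmi1 arrays (-2.08 ± 1.34, adjusted p = 0.327). Pdgfra gave -0.80 ± 0.915 (adjusted p = 0.625). All HRAS+MYC arrays lay below both HRAS+Bmi1 arrays for 6 of these 15 genes, Olig2 among them, as for 17.4% of all genes. The main fit called 1 fall of the 15 (6.67%, where 9.56% of all genes fell). With the compared groups alone 5 fell, and with array weights 2, where 2641 and 3513 of all 19938 genes fell. For the cultures called glioma, Tnc, Bcan, Nes and Aldh1l1 were well above the silent level, while S100b lay at the 95th percentile of the olfactory receptor genes and Gfap about 1 log2 unit above it. Leaving out either HRAS+Bmi1 array kept 1 of the 5 astrocyte falls and lost those of Apoe (adjusted p = 0.0708 to 0.0784) and Bcan (adjusted p = 0.087 to 0.155).

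Of 21 neuronal genes 4 fell and none rose (median -0.72). Nefm, a neurofilament, measured 5.44 to 8.26 in HRAS+MYC arrays, against 11.31 and 10.79 in HRAS+Bmi1 arrays (-4.01 ± 0.8, adjusted p = 0.00064). Map2, the dendritic microtubule protein, measured 4.90 to 5.44 in HRAS+MYC arrays, against 8.98 and 8.64 in HRAS+Bmi1 arrays (-3.62 ± 0.742, adjusted p = 0.00082). The interneuron factor Dlx1 and the adhesion molecule Ncam1 fell by 3.35 ± 0.678 and 2.82 ± 0.505. The same number fell when either HRAS+Bmi1 array was left out, 11 with the compared groups alone and 8 with array weights. Of all 19938 genes, 2641 fell with the compared groups alone and 3513 with array weights. Tubb3 (-0.81 ± 0.587, adjusted p = 0.392) and Syp (-0.58 ± 0.707, adjusted p = 0.652), which define neurons and synapses, did not pass.

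Mesenchymal, smooth muscle and SWI/SNF genes bear on the AT/RT label. Of 27 mesenchymal and matrix genes 9 fell and 3 rose (median -0.07, and 0.09 with centred arrays). Mmp14, a membrane-bound matrix protease, measured 6.78 to 8.28 in HRAS+MYC arrays, against 10.95 and 10.89 in HRAS+Bmi1 arrays (-3.27 ± 0.473, adjusted p = 1.56e-05). Fibronectin (Fn1) measured 5.45 to 7.00 in HRAS+MYC arrays, against 9.42 and 9.73 in HRAS+Bmi1 arrays (-3.25 ± 0.608, adjusted p = 0.000324). The repressors of E-cadherin Zeb1 and Zeb2 fell by 1.96 ± 0.488 and 1.57 ± 0.447, and N-cadherin (Cdh2) by 1.35 ± 0.33. Snai2, another such repressor, rose instead (1.08 ± 0.37, adjusted p = 0.0429), with the galectin Lgals3 (2.57 ± 0.457, adjusted p = 0.000192) and S100a6 (1.65 ± 0.273). Vim was among the most strongly expressed genes of both groups, at 12.98 to 13.34 in HRAS+MYC arrays, against 13.61 and 13.51 in HRAS+Bmi1 arrays (-0.39 ± 0.439, adjusted p = 0.622). The falls numbered 3 or 5 without HRAS+Bmi1 replicate 1 or 2, which ended the call of Zeb1 (adjusted p = 0.0728 to 0.0738), and Snai2 was lost in 6 of the 16 other settings.

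Of 13 smooth muscle and contractile genes 6 fell and 1 rose (median -0.78). The myosin light chain Myl9 measured 5.36 to 5.81 in HRAS+MYC arrays, against 8.45 and 7.74 in HRAS+Bmi1 arrays (-2.53 ± 0.376, adjusted p = 2.27e-05). Smooth muscle actin (Acta2) measured 5.38 to 5.90 in HRAS+MYC arrays, against 8.31 and 6.96 in HRAS+Bmi1 arrays (-1.92 ± 0.54, adjusted p = 0.0127). Both were near the silent level in HRAS+MYC cells, and the Acta2 call was lost without HRAS+Bmi1 replicate 1 (adjusted p = 0.372). Tropomyosin Tpm2 (-1.89), desmin (Des, -1.59), Cnn2 (-1.55) and Smtn (-0.91) fell, and caldesmon (Cald1, 1.12 ± 0.322, adjusted p = 0.0149) rose. Without HRAS+Bmi1 replicate 1 or 2 the falls numbered 3 or 4 and Cald1 did not pass (adjusted p = 0.0894 to 0.189). The labels name no markers, and those for AT/RT were chosen here. Of these, Krt8 and Krt18 were thus high in the HRAS+MYC arrays. Acta2 lay within 1 log2 unit of the silent range there, and Vim was high in both groups.

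Smarcb1, the subunit lost in human AT/RT, was expressed in every array. It measured 9.79 to 10.08 in HRAS+MYC arrays, against 10.56 and 10.45 in HRAS+Bmi1 arrays (-0.60 ± 0.141, adjusted p = 0.00333), a small fall that was lost without HRAS+Bmi1 replicate 1 (adjusted p = 0.0935). Of 25 SWI/SNF genes 11 fell and 2 rose (median -0.41). Smarcd3, the subunit of neural and heart complexes, measured 5.85 to 6.34 in HRAS+MYC arrays, against 9.03 and 8.80 in HRAS+Bmi1 arrays (-2.87 ± 0.335, adjusted p = 6.3e-07). Smarca2, one of the alternative ATPases, measured 5.17 to 6.05 in HRAS+MYC arrays, against 7.13 and 7.22 in HRAS+Bmi1 arrays (-1.55 ± 0.321, adjusted p = 0.000922). The other ATPase Smarca4 gave 9.79 to 10.16, against 10.29 and 10.28 (-0.28 ± 0.135, adjusted p = 0.175). Dpf3 (-1.59), Smarcc2 (-1.51) and Smarcd1 (-1.45) also fell, while Phf10 (1.13 ± 0.363, adjusted p = 0.0297) and Bcl7b (0.55 ± 0.15) rose. Without HRAS+Bmi1 replicate 1 or 2 the falls numbered 5 or 7 and neither rise passed.

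Both groups carry HRAS, and MAPK output did not move as a block. Of 24 such genes 5 rose and 4 fell, with a median of -0.02, and 0.14 with centred arrays. The rises were led by a ligand and a receptor. Ereg (epiregulin), a ligand of the EGF receptor, measured 9.99 to 11.34 in HRAS+MYC arrays, against 6.57 and 6.80 in HRAS+Bmi1 arrays (4.14 ± 0.31, adjusted p = 2.63e-10). The ephrin receptor Epha2 measured 10.78 to 11.30 in HRAS+MYC arrays, against 8.63 and 8.23 in HRAS+Bmi1 arrays (2.62 ± 0.297, adjusted p = 4.17e-07). Ier3 (2.27), the AP-1 member Fosl1 (1.32) and Tgfa (1.05) rose as well. Among the falls, the ETS factor Etv1 measured 6.21 to 7.96 in HRAS+MYC arrays, against 10.36 and 10.34 in HRAS+Bmi1 arrays (-2.96 ± 0.763, adjusted p = 0.00675). The feedback inhibitors Spred3 (-1.25 ± 0.215) and Spry1 (-0.92 ± 0.27) and cyclin D1 (Ccnd1, -1.02 ± 0.298) fell, and the ERK phosphatase Dusp6 gave -0.68 ± 0.552 (adjusted p = 0.457). The falls of Etv1, Spry1 and Ccnd1 were lost without either HRAS+Bmi1 array (adjusted p = 0.0804 to 0.199).

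Of 14 EGF ligands and ErbB receptors 5 rose and none fell (median 0.41). Beside Ereg and Tgfa, betacellulin (Btc) measured 8.93 to 10.78 in HRAS+MYC arrays, against 7.23 and 7.62 in HRAS+Bmi1 arrays (2.63 ± 0.383, adjusted p = 1.75e-05). The neuregulin Nrg2 rose by 0.89 ± 0.226. The receptor Erbb3 rose by 1.24 ± 0.391 (adjusted p = 0.0274), but the groups overlapped at 6.10 to 8.10 in HRAS+MYC arrays, against 6.24 and 6.09 in HRAS+Bmi1 arrays. The rises numbered 2 or 3 without HRAS+Bmi1 replicate 1 or 2.

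Notch genes held one of the clearest falls. Hey1, a Notch target and bHLH repressor, measured 5.40 to 7.11 in HRAS+MYC arrays, against 10.81 and 10.69 in HRAS+Bmi1 arrays (-4.22 ± 0.512, adjusted p = 1.13e-06). HRAS arrays lay between at 7.19 to 8.70, and HRAS then MYC arrays were low at 5.80 and 5.47. The feedback target Nrarp (-1.95 ± 0.58, adjusted p = 0.0189) and the receptor Notch3 (-0.83 ± 0.212) fell with Hes1, while the ligand Jag2 (2.22 ± 0.569, adjusted p = 0.00636) and Rfng (0.44) rose, so 4 of 18 fell and 2 rose. Of 24 WNT genes 5 fell and none rose: the receptors Fzd8 (-2.24 ± 0.566), Fzd2 (-1.74 ± 0.304) and Fzd3 (-1.58), the ligand Wnt7b (-1.55) and Ctnnb1 (-0.66). Of 11 SHH genes, Gas1, a co-receptor, fell by 1.55 ± 0.404, and Smo (-0.76) and Gli2 (-0.70) fell as well. The list medians of WNT (-0.14) and SHH (-0.12) turned positive with centred arrays. TGF-beta and BMP genes split, with 5 of 26 higher and 4 lower. The inhibitory Smad7 (1.89 ± 0.37, adjusted p = 0.000516), Bmp2 (1.80 ± 0.535), the co-receptor Tgfbr3 (1.80 ± 0.313, adjusted p = 0.000155), Id1 (1.45) and Inhba (1.11) rose. Id2 measured 5.38 to 9.36 in HRAS+MYC arrays, against 9.37 and 9.38 in HRAS+Bmi1 arrays (-2.29 ± 0.615, adjusted p = 0.00915), and Id4 (-2.01), Tgfb2 (-1.72) and Tgfb3 (-1.72) fell. Many of these calls needed both HRAS+Bmi1 arrays: without replicate 1 or 2, 2 or 1 Notch genes, 1 or 2 WNT genes and none or 1 SHH gene fell. In the TGF-beta and BMP list 1 gene fell in either case and 2 or 4 rose, and the calls of Bmp2 (adjusted p = 0.146 to 0.158), Id2 (lost in 4 of the 16 settings) and Id4 (lost in 7) were not kept.

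Interferon response and antigen presentation genes fell in 5 of 18 cases and rose in none (median -0.52). Ifit1, an interferon-induced RNA sensor, measured 4.18 to 4.96 in HRAS+MYC arrays, against 7.54 and 6.26 in HRAS+Bmi1 arrays (-2.42 ± 0.508, adjusted p = 0.00105). Ifit2 (-2.15), Rsad2 (-1.78 ± 0.4), B2m (-1.22), the light chain of class I MHC, and Irf1 (-0.84) fell. Relative to HRAS cells, 15 of the 18 fell in HRAS+MYC cells (median -1.22), 1 in HRAS+Bmi1 cells (median -0.54, where 3.04% of all genes fell) and 10 in HRAS then MYC cells (median -1.21, where 6.21% of all genes fell). Without HRAS+Bmi1 replicate 1 none passed between the HRAS pairs, and without replicate 2 there were 4.

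Of 18 glycolysis and hypoxia genes 6 rose and 1 fell (median 0.61). Slc16a3, the lactate exporter MCT4, measured 11.04 to 11.63 in HRAS+MYC arrays, against 6.84 and 8.22 in HRAS+Bmi1 arrays (3.85 ± 0.769, adjusted p = 0.00064). HRAS arrays held 9.89 to 11.19, so HRAS+Bmi1 cells were again the low group. Ndrg1 (2.48 ± 0.605), Pdk1 (1.40), the glucose transporter Slc2a1 (1.33 ± 0.356, adjusted p = 0.00919), Hk2 (0.98) and Ldha (0.64) rose. Adm (adrenomedullin), also induced by hypoxia, went the other way at 5.96 to 7.56 in HRAS+MYC arrays, against 9.35 and 10.48 in HRAS+Bmi1 arrays (-3.26 ± 0.577, adjusted p = 0.000182). The 2 HRAS+Bmi1 arrays differed from each other in this list. Without replicate 1 no rise passed (Slc2a1 adjusted p = 0.532), and without replicate 2 there were 8.

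The cells are Trp53-deficient, and 3 of 17 p53 target genes rose (17.6%, where 7.61% of all genes rose). The 2 that fell (11.8%) were near the 9.56% of all genes. The median was -0.08, and 0.08 with centred arrays. Perp, a target that is also a desmosome protein of epithelia, measured 9.08 to 9.57 in HRAS+MYC arrays, against 5.48 and 5.17 in HRAS+Bmi1 arrays (3.99 ± 0.584, adjusted p = 1.84e-05). The ectodysplasin receptor Eda2r rose by 2.56 ± 0.534 (adjusted p = 0.000982) and Bbc3 by 0.50, while Trp53inp1 (-1.63) and Phlda3 (-0.98) fell. Of 12 oncofetal and embryonal genes Igf2bp1 (1.79 ± 0.501, adjusted p = 0.0126) and Utf1 (0.88) rose and Hmga2 (-0.61, adjusted p = 0.049) fell. The call of Igf2bp1 was lost without either HRAS+Bmi1 array (adjusted p up to 0.161), and that of Hmga2 in 12 of the 16 other settings, any single HRAS+MYC or HRAS+Bmi1 array left out among them (adjusted p = 0.0511 to 0.27). Without either HRAS+Bmi1 array 2 of the p53 targets rose and none fell.

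Markers of other cell types were low or mixed. Of 13 microglia and macrophage genes, Cd68 rose, a lysosomal protein, at 8.62 to 10.96 in HRAS+MYC arrays, against 6.38 and 7.25 in HRAS+Bmi1 arrays (2.77 ± 0.66, adjusted p = 0.00357; 0.129 without HRAS+Bmi1 replicate 1). The defining genes Aif1, Csf1r, Itgam, Adgre1 and C1qb stayed below 5.09 in all 9 arrays. The summed linear level of that list, Cd68 included, was 780 to 2401 in HRAS+MYC arrays, against 444 and 512 in HRAS+Bmi1 arrays. Cd68 has a large part in that sum, and the other 12 members did not pass, so the sum is no separate result. The share of rises (7.69%) was near the 7.61% of all genes. For 10 endothelial genes the sums were 394 to 715, against 1041 and 1052: Flt1 fell (-1.56 ± 0.449, adjusted p = 0.015; lost without either HRAS+Bmi1 array), Vwf rose (0.34) and Tek and Emcn were below 5.09 throughout. For 11 pericyte and fibroblast genes the sums were 664 to 916, against 920 and 1302, with Col3a1 lower (-1.41) and Rgs5, Lum and Dcn below 5.09. Ependymal and choroid plexus genes summed to 327 to 412, against 319 and 325. Ttr was lower (-0.67) among 10, but it stayed below 5.09 in all 9 arrays, as did Dynlrb2, Kl, Kcnj13 and Otx2. The 1 fall in each of the endothelial, pericyte and ependymal lists was near the 9.56% of all genes. The 1 erythroid gene measured gave 25 to 38, against 26 and 33. The part of such cells in the gene differences was not tested.

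Genes on chromosomes 4 and 16 stood apart. The median difference over genes at or above the median level was 0.35 on chromosome 4 (623 genes, 200 of which rose and 37 fell) and 0.50 on chromosome 16 (319 genes, 133 rose and 15 fell). On the other 18 chromosomes it ranged from -0.20 on the X to 0.10 on chromosome 19. Relative to the mean of all 32 arrays, the median of chromosome 4 genes was -0.02 to 0.09 in HRAS+MYC arrays, against -0.32 and -0.34 in HRAS+Bmi1 arrays. For chromosome 16 it was -0.04 to 0.11 in HRAS+MYC arrays, against -0.52 and -0.51 in HRAS+Bmi1 arrays. HRAS arrays held -0.23 to 0.06 and -0.22 to 0.06, so the HRAS+Bmi1 arrays were below every HRAS+MYC and HRAS array on both chromosomes. With 7 arrays against 2, the exact permutation test (2-sided) cannot go below 0.0556, the value both chromosomes gave (0.124 adjusted over 20 chromosomes), and 9 of the 20 chromosomes gave that same value.

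The shift did not cover all of chromosome 4. In RefSeq gene order (GRCm38.p6), blocks of 50 genes from Dhrsx to Mpdz had medians of -0.18 to 0.03, and the blocks from Nfib to Agrn, at the other end, had 0.49 to 0.65. On chromosome 16 the blocks, from Zfp263 to Cbr3, had medians of 0.28 to 0.60, lowest in the first. Within that first block the running median of 31 genes was -0.02 at Srl and 0.51 at Pmm2, so the first genes were not shifted. The genes after Cbr3 were in no block, and the running median was 0.43 at the last of them. These chromosomes hold 9.04% of the measured genes, 25.3% of the genes called higher in HRAS+MYC cells and 4.09% of those called lower. Leaving their genes out of the count left 2962 calls, 1133 higher and 1829 lower. Of the rises named above, Epha2, Cdc20, Srm, Ctps, Mrto4, Ebna1bp2, Slc2a1, Phc2, Rbbp4 and Nppb lie on the shifted part of chromosome 4. So do Cdkn2c, which fell, and Cdkn2a, which did not pass. The falls Tnc, Tpm2 and Trp53inp1 lie in the blocks from Dhrsx to Mpdz, outside the shifted part. Esrp1 and Cdh17 among the rises and Calb1 among the falls also lie on chromosome 4. They were below the level that the blocks required and were not placed in them. Gart, Umps and Snai2 among the rises and Hes1 among the falls lie on chromosome 16. The cause of the shift was not tested.

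**Figure D4:**
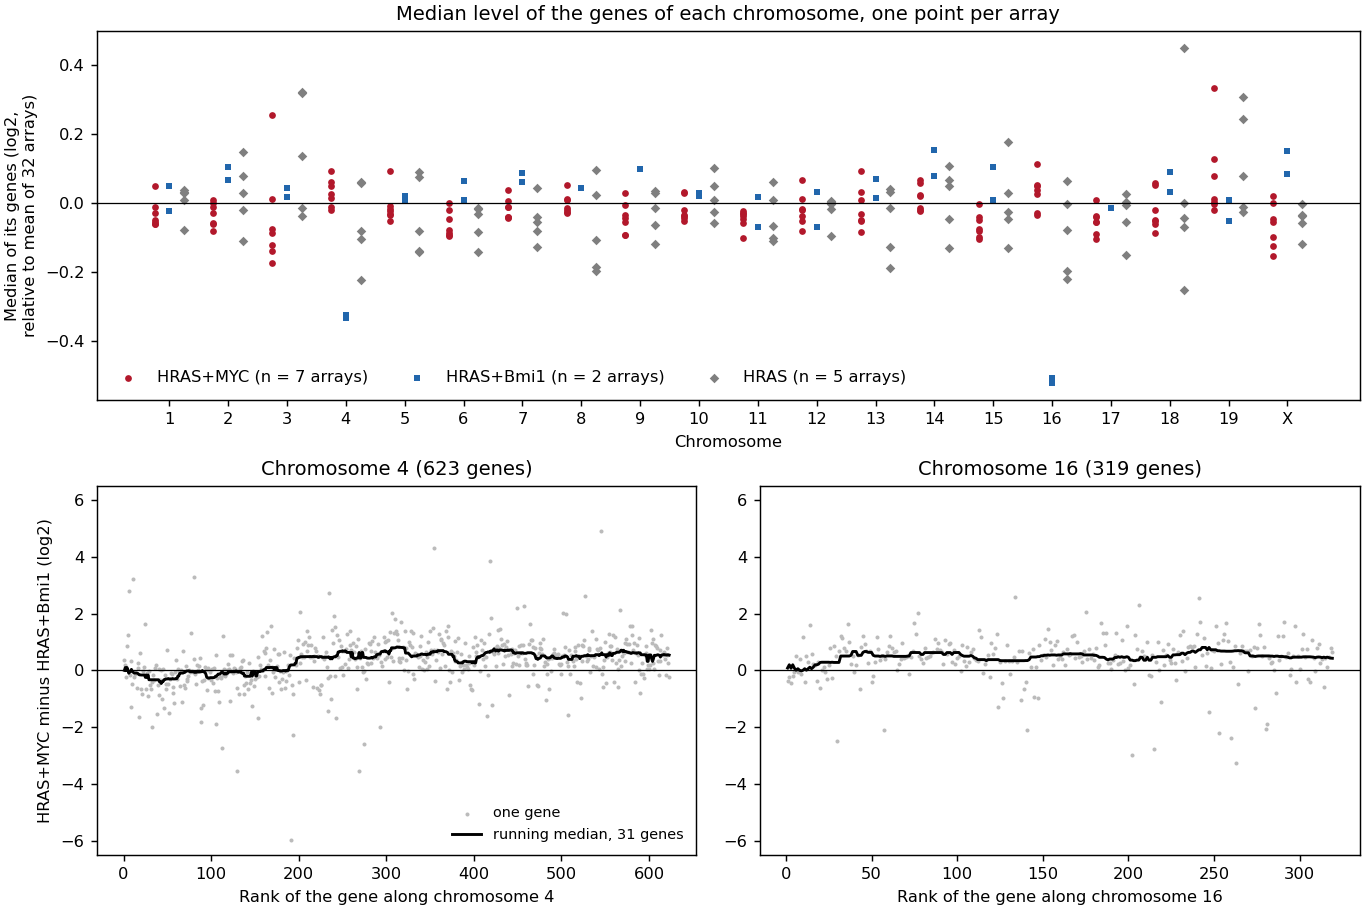
Top: for each chromosome, the median over its genes of log2 expression relative to the mean of 32 arrays, 1 point per HRAS+MYC, HRAS+Bmi1 and HRAS array. Bottom: the HRAS+MYC minus HRAS+Bmi1 difference of each gene (log2) against its rank along chromosomes 4 and 16, with a running median of 31 genes. The HRAS+Bmi1 arrays are the lowest of these on chromosomes 4 and 16, and the running median on chromosome 4 steps up after the first 200 genes.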

How the data were processed

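Affymetrix Mouse Gene 1.0 ST arrays measured total RNA of 32 sphere cultures. The authors deposited log2 values, which the submitters' processing notes credit to RMA (background correction, quantile normalization and probe set summary) in Affymetrix Expression Console 1.0. The genome build behind the probe sets is not given in the sources used here. Array medians were 5.59 to 5.79. The number of arrays limits the precision.

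The platform annotation names a single gene for 21789 of 35557 probe sets, several for 1621 and none for 12147. RefSeq (GRCm38.p6) held 99.58% of the single symbols. A gene with more than 1 probe set (999 of 19938) was read from its brightest, judged by the average across the 32 arrays. Groups followed the labels. limma 3.58.1 in R 4.3.3 fitted 1 mean for each of 8 groups over all 32 arrays, with empirical Bayes variances, 2-sided tests and Benjamini-Hochberg adjustment over 19938 genes. In simulated data with 200 changed genes the comparison of HRAS+MYC with HRAS+Bmi1 recovered 23.9%, 70.1% and 92.4% of changes of 0.5, 1 and 2 log2 units, and 3.88% of its calls were unchanged genes. The simulated noise was normal, independent between genes and, for each gene, equal in all groups. It therefore checks the fit under its own assumptions and does not give the error rate in these arrays.

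The text names the added genes, the 15 largest rises and falls among genes that passed and whose arrays did not overlap between the groups (unnamed gene models, olfactory and vomeronasal receptors, small RNAs and X or Y linked genes of sex left out), up to 4 passed members per direction from each of 33 gene lists, and members that define a list. The comparison and the lists were chosen with earlier results of these data known. Chromosome medians used genes at or above the median level of all genes (6.36). Labels give HRAS+MYC and HRAS+Bmi1 arrays the same numbers, but deviations of same-numbered arrays from their group means correlated at only 0.101 and -0.0871, so the numbers were not taken as pairs. The closing part gives the alternatives: a fit of the groups compared alone, a replicate block, another probe set rule, a filter on low genes, centred arrays, a trend with robust prior, array weights and each array left out.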

Additional observations from a re-analysis of the deposited data

Results flagged for a closer look

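In 155 sets of 7 HRAS+MYC values, 17 had 1 array far from the other 6 by Dixon's test, where chance gives about 1 in 20. HRAS+MYC replicate 2 was low for Grb10 (6.074, the others 10.347 to 11.073), Plet1 (10.287, the others 11.301 to 11.722), Jag2 (7.851, the others 8.68 to 9.293) and Flt1 (6.694, the others 8.001 to 8.66). The same array was high for Id4 (8.391, the others 6.079 to 7.063), Tspan6 (5.481, the others 4.283 to 4.769) and the chromosome 3 median (0.254, the others -0.174 to 0.01). HRAS+MYC replicate 3 was high for the glial genes Gfap (6.705, the others 5.031 to 5.566) and Fabp7 (5.382, the others 4.05 to 4.394). HRAS+MYC replicate 1 was low for Sox2 (9.692, the others 10.332 to 10.714), Ccnd1 (11.042, the others 11.725 to 11.88) and Tspan12 (4.178, the others 5.281 to 6.062), and high for the chromosome 19 median (0.331, the others -0.021 to 0.126). HRAS+MYC replicate 5 was low for Aldh1l1 (4.878, the others 5.222 to 5.435) and Des (4.953, the others 5.273 to 5.499) and high for the chromosome 5 median (0.092, the others -0.054 to -0.009). HRAS+MYC replicate 4 was low for Slc1a3 (4.993, the others 5.516 to 5.838).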

How the results depend on the processing

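The 3424 genes between HRAS+MYC and HRAS+Bmi1 cells were 4563 with those groups alone, 3044 with a replicate block (the pairing of numbers is not borne out by the data), 3432 with the probe set of largest variance, 2742 without low genes, 3348 with a trend and robust prior and 7148 with array weights; single arrays left out gave 1317 (HRAS+Bmi1 replicate 1) to 3380. Centring turned the share of higher calls to 68.7% from 44.3%, to 60.3% from 47.2% for HRAS+MYC against HRAS, to 35% from 48.6% for HRAS+Bmi1 against HRAS and to 73.2% from 50.3% for HRAS then MYC against HRAS. HRAS+MYC against HRAS (4921) gave 4152 to 4779 with single arrays left out. HRAS+Bmi1 against HRAS (1178) gave 533 with those groups alone, 3460 with array weights and 199 to 1801 with arrays left out. HRAS then MYC against HRAS (2495) gave 983, 4384 and 544 to 2667 in the same order. MYC+Bmi1 against MYC (30) gave 1, 61 and 9 to 234, and 11 without low genes. The sign turned for Max (0.113 with the replicate block, 0.094 centred) and S100b (-0.063, -0.004 and -0.025 without HRAS+MYC replicates 1, 3 and 4, -0.07 to 0.085 over all arrays left out, lowest without HRAS+Bmi1 replicate 1), and neither gene passed. Of 121 genes examined that passed, 74 kept call and direction under each of the 16 settings that held them. The setting without low genes held 108 of the 135 genes examined. Without HRAS+Bmi1 replicate 1 or 2, 45 or 33 calls were lost, with the replicate block 11, and in no other setting more than 5. Apart from these the block changed no call of the genes examined. The causes were not tested. Leaving out the genes of chromosomes 4 and 16, chosen after seeing the data, gave 2962.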

Other observations

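Some genes were singled out after their values were seen, so they are given as values only. Cdx2, a homeobox factor of trophoblast and intestine, measured 8.01 to 10.33 (median 9.77) in HRAS+MYC arrays, against 5.55 and 5.50 in HRAS+Bmi1 arrays (3.95 ± 0.306, adjusted p = 5.11e-10), and HRAS arrays held 5.42 to 5.69. Of 31 imprinted genes, 3 rose in HRAS+MYC cells (Grb10, Phlda2 and Slc22a18) and 7 fell. Peg10 measured 5.39 to 6.98 in HRAS+MYC arrays, against 10.32 and 10.27 in HRAS+Bmi1 arrays (-3.82 ± 0.497, adjusted p = 3.27e-06), and its neighbour Sgce fell by 3.34 ± 0.563 (adjusted p = 0.000103). Nnat, Ndn (-2.63), Peg3 (-2.48), Peg12 (-1.39) and Mkrn3 (-1.37) were the others that fell, and the median of the 31 was -0.04. Of 7 IGF-binding proteins, Igfbp5, Igfbp2 and Igfbp3 fell while Igfbp6 rose. Igfbp6 measured 7.99 to 10.05 in HRAS+MYC arrays, against 5.63 and 5.63 in HRAS+Bmi1 arrays (3.47 ± 0.388, adjusted p = 3.66e-07). Igfbp3 measured 6.41 to 9.65 in HRAS+MYC arrays, against 11.71 and 12.25 in HRAS+Bmi1 arrays (-3.35 ± 0.684, adjusted p = 0.000798). Of 12 annexins, Anxa8, Anxa3 (1.87), Anxa11 (1.85) and Anxa2 (1.37) rose and Anxa6 fell (-2.43 ± 0.386, adjusted p = 5.2e-05).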
